A study of Mus musculus with 8 samples.

Results

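Serpins are a superfamily of proteins that share a metastable fold, and the Serpin probes of 8 mouse testis arrays are described here, clade by clade. They were taken as every non-control probe whose gene name in the array files begins with Serpin, which gave 73 of 41174 distinct probes, for 54 genes (35 with 1 probe and 19 with 2). By the letter after Serpin, 25 probes belong to clade A, 35 to clade B, 2 to clade C, 1 to clade D, 3 each to clades E and F, 1 each to clades G and H, and 2 to clade I. The array names are old, but the 63 probes whose accession is in a current RefSeq table all carry the same symbol there.

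The arrays measured total RNA of whole testicular cells from male mice, 4 of genotype VRK1+/+ (wild type) and 4 of genotype VRK1-/- (mutant). Vrk1 encodes a nuclear serine/threonine kinase. The labels call the 4 arrays of a group biological replicates, but strain, age, the kind of allele and how many animals gave each RNA are not named there. Each genotype's 4 arrays lie on 1 slide and share its scan, so genotype and slide cannot be told apart in any result below. In RNA of a whole tissue, more cells of a type and more RNA per cell cannot be told apart either.

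An inhibitory serpin offers a protease an exposed reactive loop, is cleaved, and traps the enzyme in a covalent complex that destroys both proteins. The secreted clade A members include inhibitors of elastase, chymotrypsin-like enzymes and activated protein C, and also hormone carriers that inhibit nothing. Clade B members mostly stay inside cells and guard the cytosol against lysosomal and granule proteases, while clades C to I cover blood clotting, fibrinolysis, complement control and collagen folding. In the testis Serpina5, protein C inhibitor, is known to be needed for male fertility in mice.

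The sequences upstream of 3 of the clade A genes that were higher in the mutant are shown because these genes are neighbouring and related. Their rises differed in size (13.6-fold for Serpina3n, 2.31-fold for Serpina3c and 1.88-fold for Serpina3b), and the order of the mutant arrays differed between them. Serpina3m and Serpina3k, which also rose, were not compared. Each line gives the 250 bases before the gene's start in RefSeq (build GRCm38.p6), written in the direction of the gene, 5′ to 3′. Capitals mark an 18-base run that all 3 hold.
Serpina3n, chr12:104406458-104406707, + strand: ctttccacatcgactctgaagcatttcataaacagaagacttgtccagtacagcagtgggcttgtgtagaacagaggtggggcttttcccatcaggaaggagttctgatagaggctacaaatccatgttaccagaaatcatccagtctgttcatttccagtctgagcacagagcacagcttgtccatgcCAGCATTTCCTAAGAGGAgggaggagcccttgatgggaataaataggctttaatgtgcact
Serpina3c, chr12:104153873-104154122, - strand: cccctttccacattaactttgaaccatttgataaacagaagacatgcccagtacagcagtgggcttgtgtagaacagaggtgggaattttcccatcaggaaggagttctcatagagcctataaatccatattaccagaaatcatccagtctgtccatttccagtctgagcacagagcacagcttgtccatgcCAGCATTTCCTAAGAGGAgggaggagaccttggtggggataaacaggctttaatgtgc
Serpina3b, chr12:104127746-104127995, + strand: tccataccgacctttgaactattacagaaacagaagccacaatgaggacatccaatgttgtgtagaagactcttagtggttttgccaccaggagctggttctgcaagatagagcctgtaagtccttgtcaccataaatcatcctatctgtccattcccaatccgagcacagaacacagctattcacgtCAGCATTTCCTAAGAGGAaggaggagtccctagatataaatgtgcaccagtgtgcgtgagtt

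The Serpina3n and Serpina3c sequences matched at 229 of 253 aligned positions (90.5%), and Serpina3n and Serpina3b at 69.7%. The 18-base run, CAGCATTTCCTAAGAGGA, was in 3 of the 32851 promoters of the RefSeq table searched on both strands (0.00913%), which are these 3. It was chosen as the longest run that these 3 related sequences share, so its presence in them was fixed in advance. In Serpina3n it lies 61 to 44 bases before the start, and the longest run shared by Serpina3n and Serpina3c covers 64 bases. The upstream sequences of Serpina3g and Serpina5, which are 47% and 51.4% identical to that of Serpina3n, did not hold the run. Of 5 short motifs searched on both strands of the upstream sequences of Serpina3n, Serpina3c, Serpina3b, Serpina3g and Serpina5, the letters AGAACA, found in glucocorticoid and androgen receptor sites, were in 4 (not in Serpina3g), against 16.1% of all promoters. The letters TTCNNNGAA, the STAT pattern, were only in Serpina3g among these 5, against 7.02% of all promoters, and TATAAA was in Serpina3c and Serpina3b, against 12.4%. AACAAT, a pattern of SOX factors, was in Serpina5, against 9.42% of all promoters. The letters GATAAG, bound by factors named for them, were in none of the 5, against 6.55%. The matches are descriptions of letters, not of binding.

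Levels are given as log2 of the processed signal relative to the 75th percentile of its array, so a level of 0 equals that percentile and 1 unit is a factor of 2. They are comparable between arrays for 1 probe, not between probes. A probe was tested when 4 or more of the 8 arrays had it well above background by Feature Extraction's own call, and it is said to have risen or fallen when limma's p, adjusted by the Benjamini-Hochberg method over all 33717 probes tested, was under 0.05. Of the 73 Serpin probes 55 were tested, for 46 genes, and 18 were not, 15 of them because they were well above background nowhere. Of the 55, 4 were well above background on no wild-type array and met the filter through the mutant arrays alone. Serpinb13 and Serpinb1b, both counted as rises below, are among these 4. Serpin probes well above background numbered 43 to 48 on the wild-type arrays and 56 or 57 on the mutant arrays, while over all probes the share was 72.8% to 77.1% against 83.0% to 86.1%. The 75th percentile of the raw signal was 680 to 790 in the wild type and 928 to 1124 in the mutant. The part of this difference in signal and background in the results below was not tested. The labels were borne out by Vrk1, whose wild-type level of -0.71 ± 0.16 (SD, n = 4) compared with a mutant level of -2.97 ± 0.19, 4.78-fold lower (limma adjusted p = 1.65e-04), and 4.17-fold lower by its other probe.

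Serpin transcripts moved mainly upward in the mutant testis. Of the 55 tested probes 18, for 17 genes, rose (32.7%), against 21.2% of all tested probes, and 2 fell (3.64%), against 10.8%. In either direction 20 of 55 passed, against 32.1% of all tested probes. The median difference, mutant minus wild type, was 0.45 over the Serpin probes and 0.05 over all tested probes. All 4 mutant arrays were above all 4 wild-type arrays for 20 Serpin probes, where the background share is 21.6%, and below them for 4, where it is 13.8%. Of the 55 tested Serpin probes 8 rose at least 2-fold, against 7.11% of all tested probes, and none fell that far. With each array scaled to its median instead, which moved the median of all probes to -0.17, 15 Serpin probes rose and 5 fell, while over all probes 4491 rose and 8768 fell. By clade, 8 of 21 tested probes rose and none fell in clade A, 8 of 23 rose and 1 fell in clade B, and 2 of 11 rose and 1 fell in clades C to I.

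**Figure D1:**
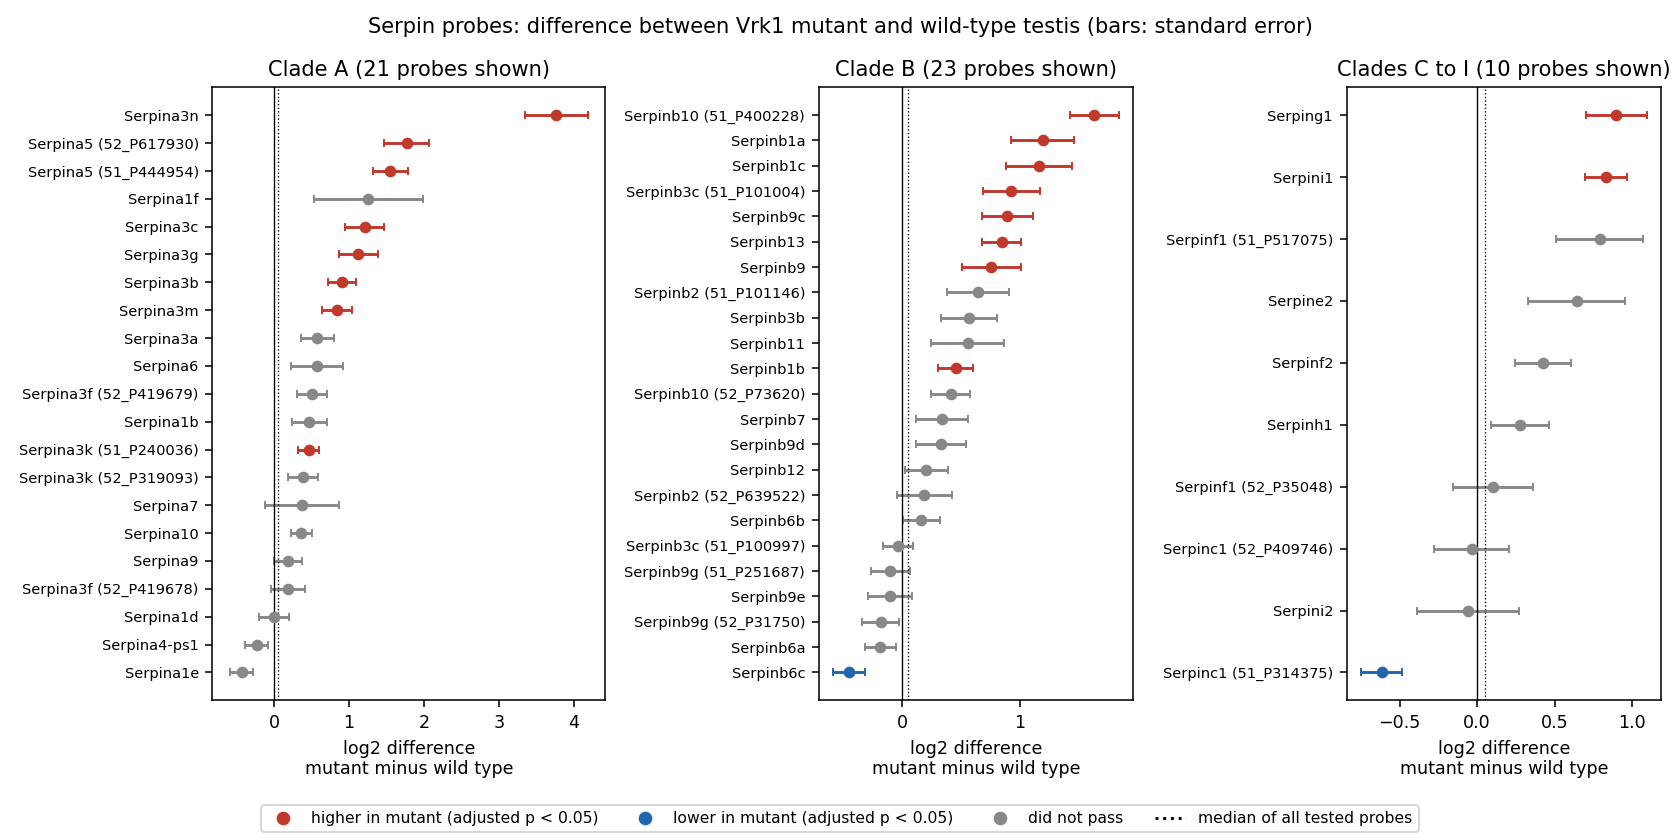
Log2 difference between mutant and wild type (x axis) for 54 of the 55 tested Serpin probes (rows), in 3 panels by clade. Points are limma estimates from 4 arrays a group and bars their standard errors. Red marks a rise and blue a fall at an adjusted p under 0.05, and the dotted line is the median of all tested probes. Serpina3n stands at 3.76, and the 2 falls, Serpinb6c and Serpinc1, stand at -0.45 and -0.62.

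How far these counts hold depended on how bright the probe was. Of the 17 tested Serpin probes with a mean level above -2 over the 8 arrays (a level chosen after the values were seen), 8 rose (47.1%) and none fell, with a median difference of 0.79. All tested probes above that level rose in 14.8% of cases, with a median of -0.19. Of the 38 dimmer Serpin probes 10 rose (26.3%), close to the 28.7% of all dimmer probes. With the normexp background correction in place of the scanner's, 9 of the 17 brighter Serpin probes rose and 1 of the 38 dimmer ones, against 10.7% and 0.995% of all probes at those levels. The median difference of the 55 Serpin probes was then -0.25, beside -0.23 over all probes.

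**Figure D2:**
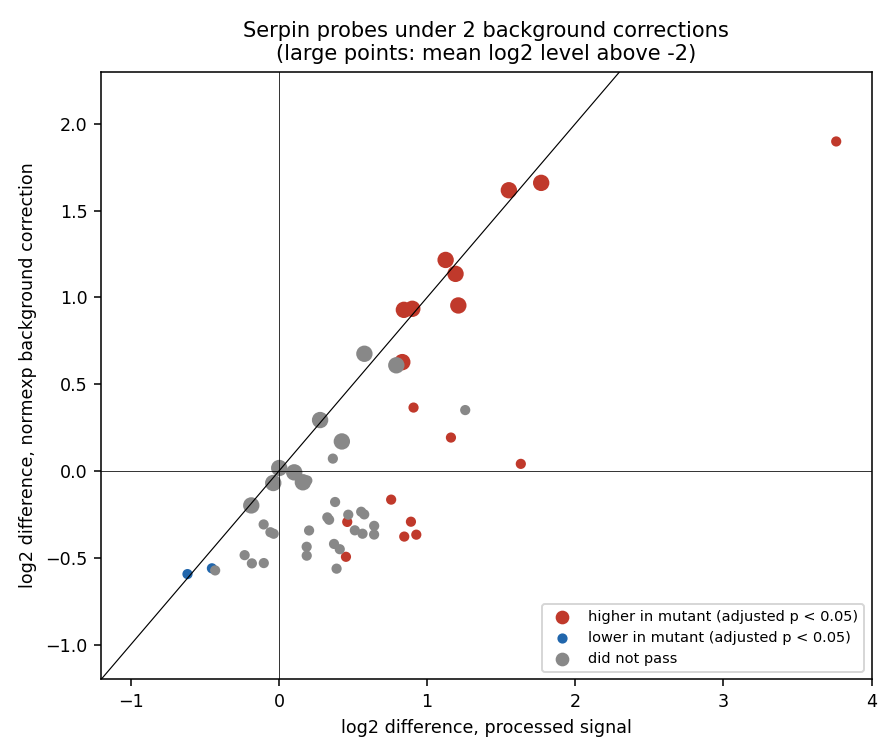
Log2 difference of each of the 55 tested Serpin probes with the scanner's processed signal (x axis) and with the normexp background correction (y axis), with colours as for the differences by clade. Large points are the 17 probes with a mean level above -2, and the diagonal marks equal values. The large points lie near the diagonal, whereas many small points fall below 0 on the y axis, and Serpina3n moves from 3.76 to 1.90.

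Clade A held the strongest rise, that of Serpina3n, a secreted acute-phase inhibitor related to α1-antichymotrypsin that blocks granzyme B. Its level was -4.88, -5.46, -5.54 and -3.88 on wild-type arrays 1 to 4 and -0.67, -1.96, -1.52 and -0.55 on mutant arrays 1 to 4. The groups were far apart, and in the wild type the probe was well above background on only 2 of the 4 arrays. The difference was 3.76 ± 0.42 (SE), 13.6-fold (limma adjusted p = 7.13e-04). With the normexp background correction it was 1.90, smaller by more than 1.5 times and still past the threshold (limma adjusted p = 0.00567).

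Serpina5, the protein C inhibitor named above, also inhibits the sperm protease acrosin, and both of its probes rose. The brighter probe read 3.01, 2.50, 2.38 and 2.26 on the wild-type arrays and 4.60, 3.58, 4.15 and 4.03 on the mutant arrays. The lowest mutant array, the second, was still above the highest wild-type array, the first. The difference was 1.55 ± 0.24 (SE), 2.93-fold (limma adjusted p = 0.00273). The other probe, whose 60 bases span an exon junction (chr12:101598175-101599524 in mm7, the build of the array files), gave 1.77 ± 0.30 (SE), 3.41-fold (limma adjusted p = 0.00402), from -0.19, -1.29, -1.15 and -0.64 to 1.33, 0.26, 0.92 and 1.31. The 2 differences lay within 1 standard error of each other, and this is the only Serpin gene with 2 tested probes of which both passed.
Serpina5 junction probe: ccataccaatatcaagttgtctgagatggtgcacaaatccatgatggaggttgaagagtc

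The Serpina3 genes next to Serpina5 are a mouse expansion of the family that is a single gene in humans. Of the 8 on the array 6 rose, Serpina3k among them only with the reported scaling. Over all tested probes, counted by probe and not by gene, 21.2% rose. Serpina3g, which acts inside cells against lysosomal cathepsins, read 1.83, 1.48, 1.47 and 1.52 in the wild type and 3.44, 2.18, 2.83 and 2.37 in the mutant. The wild-type arrays were tightly grouped and the mutant arrays widely spread, without overlap, and the difference was 1.13 ± 0.25 (SE), 2.18-fold (limma adjusted p = 0.0117). Serpina3c read -0.54, -1.32, -1.44 and -0.84 in the wild type and 0.63, -0.37, 0.32 and 0.12 in the mutant, 2.31-fold higher (difference 1.21 ± 0.26 SE, limma adjusted p = 0.00929). The lowest mutant array was 0.17 above the highest wild-type array.

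Serpina3b read -2.65, -3.19, -3.39 and -3.33 in the wild type and -2.47, -2.13, -2.24 and -2.08 in the mutant, 1.88-fold higher (difference 0.91 ± 0.19 SE, limma adjusted p = 0.0080). Wild-type array 1 and mutant array 1 were the nearest pair, and the groups did not overlap, but with normexp the difference was 0.37 and did not pass (limma adjusted p = 0.172). Serpina3m rose by 0.84 (limma adjusted p = 0.0141) and Serpina3k by 0.46 on 1 probe (limma adjusted p = 0.0298). The second Serpina3k probe gave 0.39 without passing, and the call of the first was lost in 5 of the 8 fits that left out 1 array and under all 5 other scalings and corrections. It was 0.07 with quantile normalization and -0.29 with normexp, so its direction is not settled. Serpina3a (0.58) and both probes of Serpina3f (0.51 and 0.19) did not pass.

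These genes are close relatives, so cross-hybridisation between them is a limit on naming each one. Among the 2628 pairs of Serpin probes, no pair from different genes shared 48 or more of 60 bases in their best ungapped alignment. The most alike pair from different genes was Serpinb9d and Serpinb9g, with 44 identical bases. This compares probes with probes only. Whether a probe also binds the transcript of a relative, elsewhere along its length, was not tested.

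**Figure D3:**
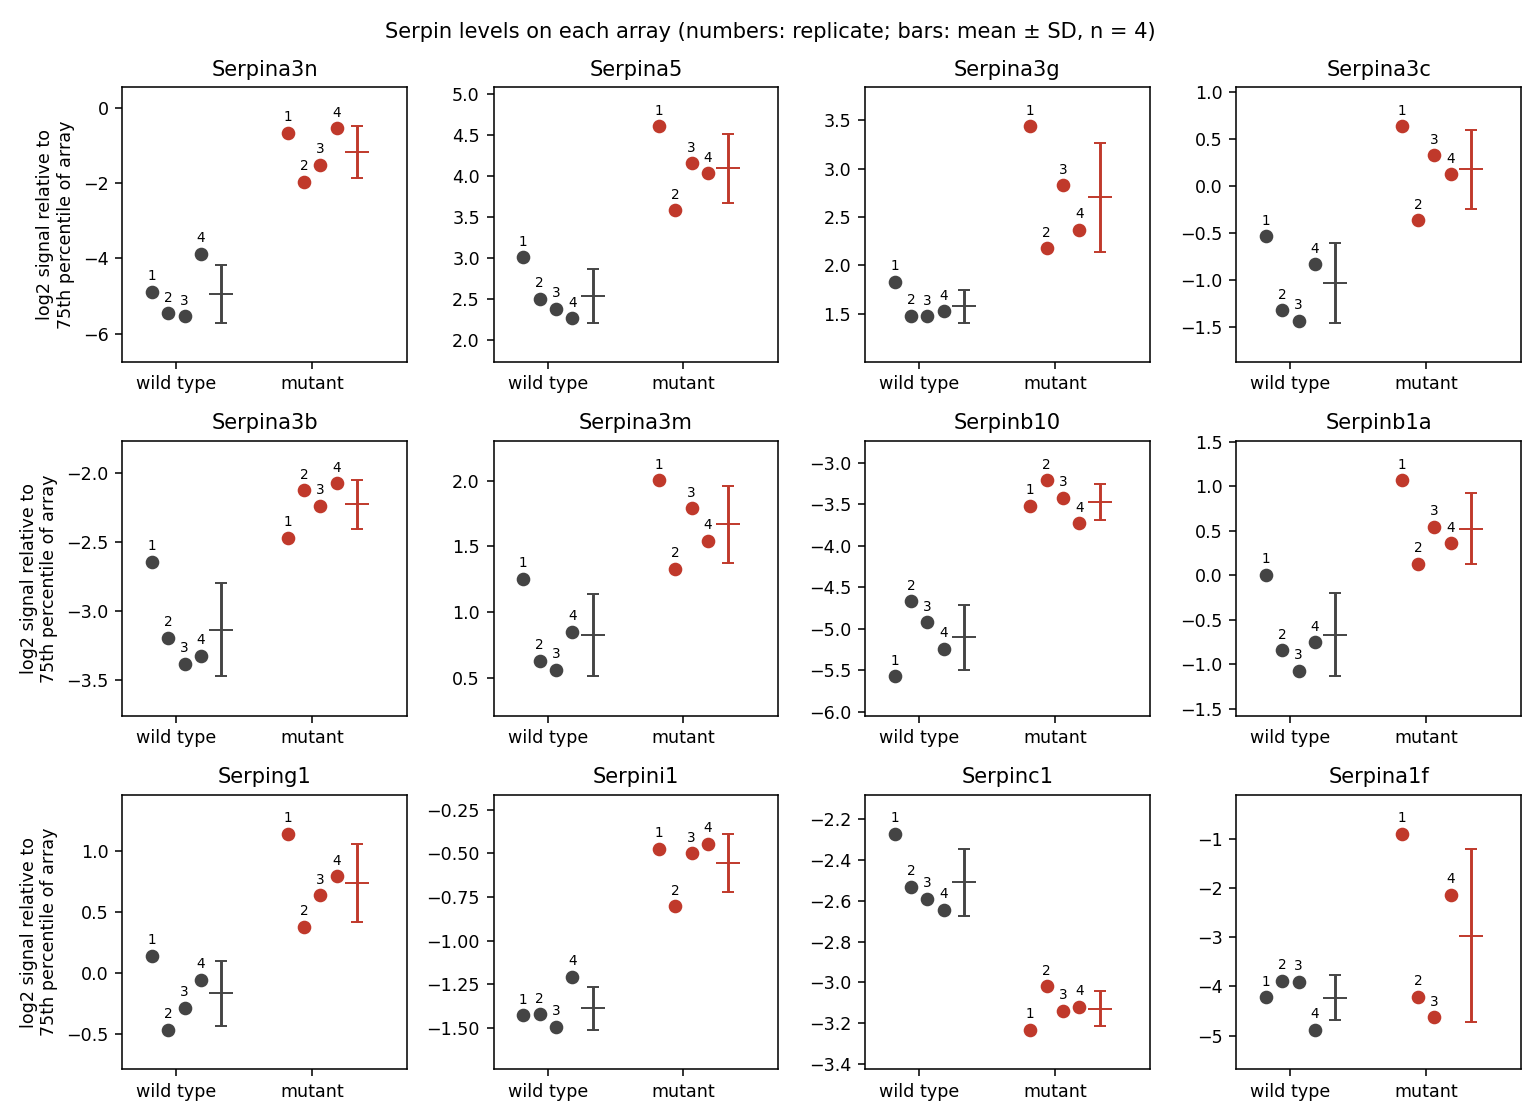
Level of 12 Serpin probes on each array (y axis, log2 relative to the array's 75th percentile, with its own range in each panel), wild type in grey and mutant in red. Small numbers give the replicate, and the horizontal marks with bars are the mean and SD of 4 arrays. The groups do not overlap in the panels of the 11 genes that rose or fell, and Serpina1f is high on mutant arrays 1 and 4 alone.

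The clade A genes form a cluster on chromosome 12, except Serpina7 on the X chromosome, and the probes that rose lay at one end of it. In mm7 coordinates the 12 probes of 9 genes from Serpina5 to Serpina3n span chr12:101598175-101908089, 0.310 Mb, and all 12 were tested. Of these, 8 rose, 9 had no overlap between the groups, all had a difference above 0, and the median was 0.88. Over all tested probes 21.2% rose, 21.6% had all mutant arrays above all wild-type arrays, 53.3% had a difference above 0, and the median was 0.05. The rest of the cluster (chr12:101109198-101575619) held 12 probes of 10 genes, 8 of them tested, of which none passed, with a median of 0.28. The border was drawn after the values were seen, so the contrast is a description without a test.

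Vrk1 itself lies 1.65 Mb from the Serpina3n end of the cluster. Within 10 Mb of Vrk1, 18.8% of the 324 tested probes not named Serpin on the array rose and 14.8% fell, with a median of -0.09. Over all tested probes 21.2% rose and 10.8% fell (32.1% in either direction), with a median of 0.05, so the shares near Vrk1 were close to these. Between the cluster and Vrk1, 4 of 34 probes not named Serpin rose (11.8%) and 2 fell (5.88%). On the other side, in the 1 Mb before the Serpina5 end, 10 of 20 rose and 3 fell, with a median of 0.25, so rises were not confined to the Serpin stretch. Inside the Serpina5 to Serpina3n stretch 5 probes not named Serpin were tested, and all 5 changed, 3 up and 2 down, from -1.58 (LOC628916) to 1.99 (BI329779). Their array names alone do not tell whether any of these 5 is a Serpin relative. Whether DNA linked to the mutant allele has a part in the levels of this stretch was not tested.

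**Figure D4:**
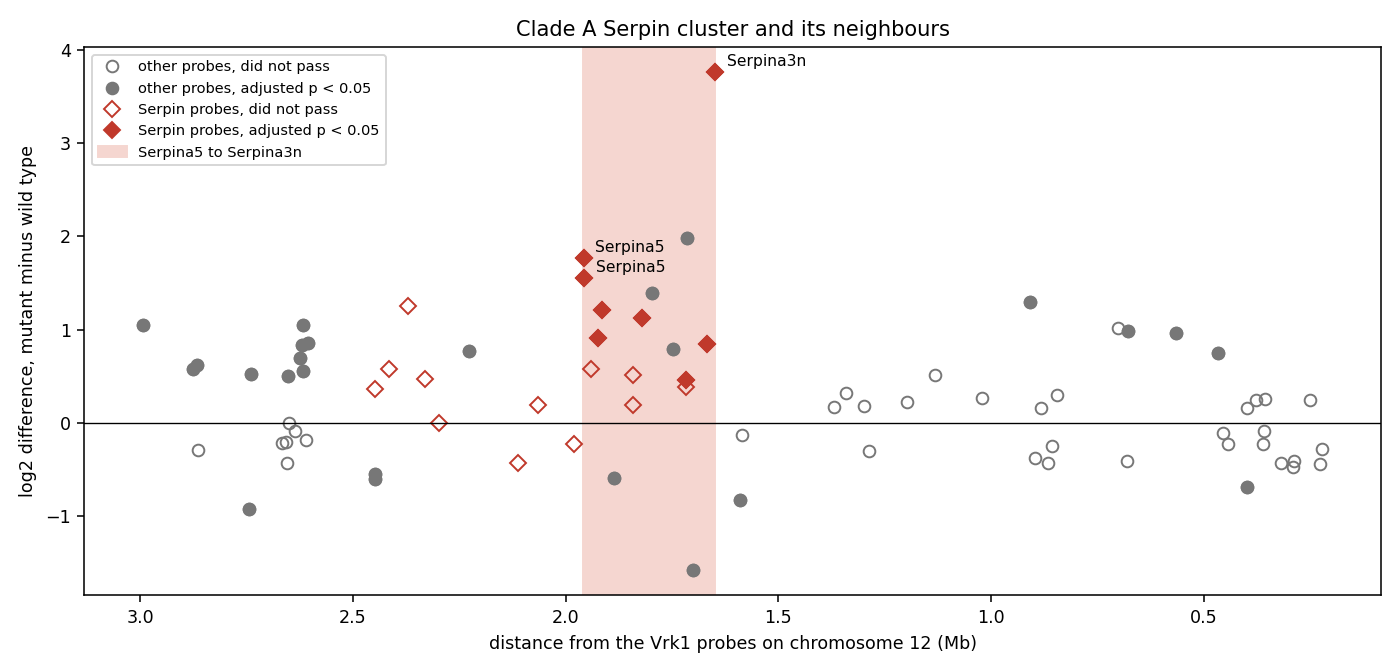
Log2 difference between mutant and wild type (y axis) of tested probes by distance from the Vrk1 probes on chromosome 12 (x axis, Mb). Diamonds are Serpin probes, circles other probes, and filled symbols passed at an adjusted p under 0.05. The shaded stretch from Serpina5 to Serpina3n holds all 8 clade A probes that rose, beside 5 other probes that changed in both directions.

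The α1-antitrypsin genes at the other end of the cluster did not pass with the reported scaling. Serpina1b, an inhibitor of neutrophil elastase made mainly by the liver, read -3.73, -4.41, -4.58 and -4.82 in the wild type and -4.27, -3.87, -3.75 and -3.78 in the mutant. The highest of the 8 arrays was a wild-type one, and the difference was 0.47 ± 0.23 (SE, limma adjusted p = 0.146). Its paralogue Serpina1d gave 0.00 and Serpina1e -0.43 (limma adjusted p = 0.0544). Serpina1e did pass, as lower, with median scaling (-0.65, limma adjusted p = 0.0107), quantile normalization (-0.78, limma adjusted p = 0.00785) and cyclic loess (-0.77, limma adjusted p = 0.00871). The hormone carriers Serpina6, which binds corticosteroids, and Serpina7, which binds thyroxine, gave 0.58 and 0.37 without passing. Serpina10, a cofactor-dependent inhibitor of clotting factor X, gave 0.36, Serpina9 0.19 and the pseudogene Serpina4-ps1 -0.23, none of which passed.

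Serpina1f differed from the rest in that 2 mutant arrays set its mean. It read -4.22, -3.89, -3.90 and -4.89 in the wild type and -0.90, -4.20, -4.63 and -2.14 in the mutant. Mutant arrays 1 and 4 stood above all others while mutant arrays 2 and 3 lay within the wild-type range, so the mean difference of 1.26 ± 0.72 (SE) did not pass (limma adjusted p = 0.198). Without those 2 arrays it was -0.19. On the same 2 arrays the epididymal genes Crisp1 and Cd52 were high, and Rnase9 and Lcn12 less so. The epididymal genes Gpx5, Ros1, Lcn9 and Lcn10 were not high there. Crisp1 read 2.50 and 2.80 there against -2.40 and -4.20 on mutant arrays 2 and 3, and -5.56 to -4.98 in the wild type.

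The epididymis and efferent duct list had 14 tested probes, of which 4 rose, none fell and 10 did not pass, with a median of 0.24. The shares over all tested probes were 21.2% up and 10.8% down. The list's summed level, in multiples of the 75th percentile, was 3.07 to 5.37 on the wild-type arrays and 30.2, 5.58, 5.46 and 20.6 on mutant arrays 1 to 4. Cd52, Crisp1 and Lcn2, the brightest of the list on mutant arrays 1 and 4, weigh most in that sum. The list's genes Lcn8 and Teddm1 were well above background nowhere. Without mutant arrays 1 and 4, an exclusion chosen after the values were seen, 5 Serpin probes rose and none fell, while over all probes the calls went to 1318 up and 220 down. The 4 Serpin calls shared with the full set were Serpina3n (3.20, limma adjusted p = 0.0240), the brighter Serpina5 probe (1.33, limma adjusted p = 0.0443), Serpinb10 (1.79, limma adjusted p = 0.0248) and Serpinb13 (0.99, limma adjusted p = 0.0460). Serpina3g was then 0.93, Serpina3c 1.01 and Serpina3m 0.74, each at an adjusted p above 0.05 with 6 arrays.

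Markers of several other testis cell types moved in the direction of the clade A genes. Over all tested probes 21.2% rose and 10.8% fell, and the endothelial count below lies close to that share of rises. Of the 18 tested probes of the Sertoli cell list (15 genes, none without signal), 13 rose and none fell, with a median of 0.92, and the summed level was 114 to 240 in the wild type and 273 to 452 in the mutant. In the Leydig cell list 5 of 9 rose and none fell (median 0.94, summed level 75.9 to 134 against 146 to 245). In the macrophage list 7 of 11 rose and none fell (median 0.74, 3.75 to 4.93 against 4.78 to 10.4). In the list of germ cells in meiosis or later, none of 16 rose and 5 fell (median -0.33, summed level 1966 to 2563 against 1585 to 2152). In the peritubular myoid list none of 10 passed (median 0.00, summed level 22.6 to 34.0 against 18.4 to 30.8), the endothelial list had 2 of 10 up (median 0.26, 2.24 to 4.25 against 2.73 to 5.07), and the liver and plasma protein list 1 of 11 up and 1 down (median 0.17, 0.788 to 2.31 against 1.02 to 1.85, Ttr without signal). On the mutant arrays the mean level of the Sertoli list was 2.60, 2.10, 2.45 and 2.29, and 6 of the 18 Serpin probes that rose had the same order of the 4 arrays (the brighter Serpina5 probe, Serpina3c, Serpina3g, Serpina3k, Serpina3m and Serpinb1a). The other 12 had another order. Serpina3n and Serpini1 had that of the Leydig list (means 3.21, 2.57, 3.14 and 3.29). The Serpina5 junction probe, Serpinb1c and Serping1 had that of the macrophage list (means -0.21, -1.33, -0.74 and -0.60). How many of all probes have each order was not counted. The part of the make-up of the cells in the Serpin differences was not tested.

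**Figure D5:**
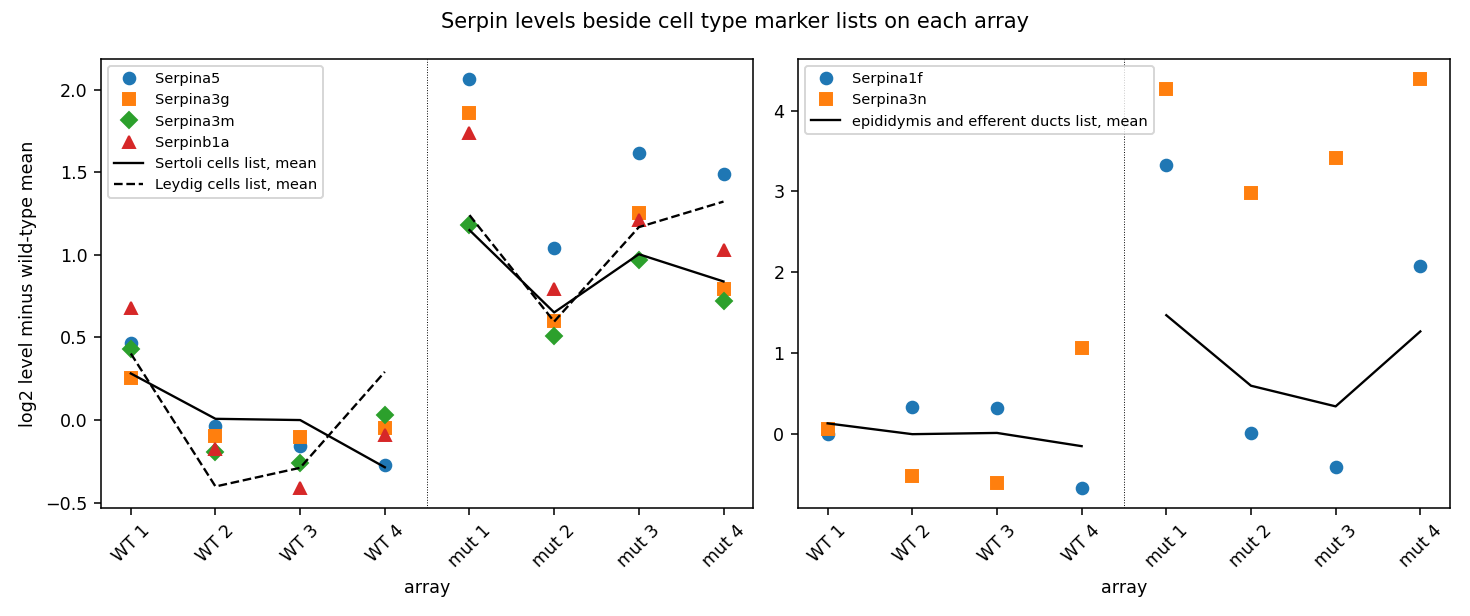
Level on each of the 8 arrays (x axis) minus the wild-type mean (y axis, log2). The left panel sets 4 Serpin probes (symbols) beside the mean of the Sertoli and Leydig cell lists (lines), and the right panel Serpina1f and Serpina3n beside the epididymis list. The 4 on the left are all from the 6 risen probes with the mutant array order of the Sertoli list. The 12 risen probes with another order are not in that panel. On the left, mutant array 1 is highest and mutant array 2 lowest among the mutant arrays for Serpina5 and the Sertoli list. On the right, Serpina1f follows mutant arrays 1 and 4, whereas Serpina3n is raised on all 4.

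Clade B genes lie in 2 groups, on chromosomes 1 and 13. On chromosome 1, 3 of 11 tested probes rose (27.3%) and none fell, and on chromosome 13, 5 of 12 rose (41.7%) and 1 fell (8.33%). Over all tested probes 21.2% rose and 10.8% fell. Most clade B probes were dim, and 12 of the 35 were not tested.

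The brightest rise of the clade was Serpinb1a, the cytosolic inhibitor of neutrophil elastase and cathepsin G. It read 0.01, -0.84, -1.08 and -0.76 in the wild type and 1.07, 0.13, 0.54 and 0.36 in the mutant, a difference of 1.19 ± 0.27 (SE), 2.28-fold (limma adjusted p = 0.0111). Wild-type array 1 and mutant array 2 were only 0.12 apart, but the groups did not overlap. It was the only clade B rise that passed under all 5 other scalings and background corrections tried.

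Its paralogue Serpinb1c read -3.82, -4.92, -4.97 and -4.13 in the wild type and -2.96, -3.68, -3.33 and -3.22 in the mutant, a difference of 1.16 (limma adjusted p = 0.0140) without overlap, which was 0.19 with normexp. Serpinb1b was well above background on no wild-type array, so it was tested through the mutant arrays alone. It rose 1.37-fold on the reported scale (limma adjusted p = 0.0442). The call was lost in 7 of the 8 fits without 1 array and under all 5 other scalings and corrections, and with normexp the difference was -0.49, so its direction is not settled.

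Serpinb10, or bomapin, known from blood-forming cells, read -5.58, -4.67, -4.92 and -5.24 in the wild type and -3.52, -3.21, -3.43 and -3.73 in the mutant. The groups were 0.94 apart at their nearest arrays, and the difference was 1.63 ± 0.21 (SE, limma adjusted p = 0.00130). With normexp it was 0.04, and the second probe gave 0.41 without passing (limma adjusted p = 0.0841).

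Serpinb13, an inhibitor of lysosomal cathepsins, was well above background on no wild-type array and on all 4 mutant arrays, through which alone it was tested. It read -6.12, -5.63, -6.06 and -6.12 in the wild type, where -6.12 is the floor, and -5.32, -4.84, -5.15 and -5.24 in the mutant, 1.80-fold higher (limma adjusted p = 0.00696). That estimate holds for the reported scale and all 8 arrays only, since the difference of 0.85 ran from 0.75 to 0.96 when 1 array was left out. Serpinb9c read -6.12, -6.12, -5.15 and -5.93 in the wild type and -5.01, -4.93, -4.81 and -5.01 in the mutant, a difference of 0.89 (limma adjusted p = 0.0147). For both, the sign turned with normexp (-0.38 and -0.29).

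Serpinb3c, a relative of the squamous cell carcinoma antigens, had 2 probes that differed. The dimmer, which spans an exon junction (chr1:107172003-107172684 in mm7), read -5.55, -4.98, -5.16 and -6.04 in the wild type and -4.66, -4.59, -4.08 and -4.68 in the mutant. Without overlap it rose by 0.93 (limma adjusted p = 0.0198), but it did not pass without mutant array 3, and it was -0.37 with normexp. The brighter probe gave -0.04 (limma adjusted p = 0.831). Serpinb9, the granzyme B inhibitor of cytotoxic lymphocytes, rose by 0.76 (limma adjusted p = 0.0452) although its groups overlapped, and it did not pass in 6 of the 8 fits without 1 array or under any of the 5 other scalings and corrections. With normexp it was -0.16.

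The clade B gene that fell was Serpinb6c, whose relatives inhibit cathepsin G. It read -3.51, -3.30, -3.41 and -3.14 in the wild type and -3.77, -3.66, -3.82 and -3.92 in the mutant, 1.37-fold lower (limma adjusted p = 0.0303). The groups did not overlap, and the call was lost in 5 of the 8 fits without 1 array. Its bright paralogue Serpinb6a gave -0.19 (limma adjusted p = 0.281) and Serpinb6b 0.16, and neither passed. The clade B probes that did not pass numbered 14, with differences from -0.19 (Serpinb6a) to 0.64 (Serpinb2).

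Of the clotting inhibitors, clades C and D, 1 probe fell. Serpinc1, antithrombin, the main inhibitor of thrombin, fell on 1 of its 2 probes. It read -2.27, -2.53, -2.59 and -2.65 in the wild type and -3.23, -3.02, -3.14 and -3.12 in the mutant, 1.53-fold lower (difference -0.62 ± 0.13 SE, limma adjusted p = 0.00969). All mutant arrays lay below all wild-type arrays, but the second probe gave -0.04 (limma adjusted p = 0.920). Serpind1, heparin cofactor II, was at the floor on all 8 arrays and was not tested.

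The control of complement and fibrinolysis gave 2 rises. Serping1, the C1 inhibitor, which restrains complement and the contact system, read 0.14, -0.46, -0.28 and -0.05 in the wild type and 1.14, 0.38, 0.64 and 0.79 in the mutant, 1.87-fold higher (difference 0.90 ± 0.20 SE, limma adjusted p = 0.0102). Serpini1, neuroserpin, an inhibitor of tissue plasminogen activator, read -1.43, -1.42, -1.49 and -1.21 in the wild type and -0.47, -0.80, -0.50 and -0.45 in the mutant, 1.78-fold higher (difference 0.83 ± 0.14 SE, limma adjusted p = 0.00371). Neither had overlapping groups, and both passed under all 5 other scalings and background corrections.

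Of the other inhibitors that act on plasminogen activators and plasmin, those given here did not pass. Serpine2, protease nexin 1, read -6.12, -5.60, -5.31 and -4.78 in the wild type and -5.17, -5.08, -4.88 and -4.09 in the mutant, a difference of 0.64 ± 0.31 (SE, limma adjusted p = 0.137). Its wild-type array 4 lay above 3 of the mutant arrays. Serpinf2, α2-antiplasmin, which inhibits plasmin, read -2.44, -1.70, -2.09 and -2.22 in the wild type and -1.40, -1.78, -1.78 and -1.79 in the mutant, a difference of 0.42 ± 0.18 (SE, limma adjusted p = 0.0957), with wild-type array 2 above 3 of the mutant arrays.

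Serpinf1, PEDF, is a secreted protein that restrains vessel growth and inhibits no protease. Its brighter probe read -0.01, -0.58, -0.39 and 0.33 in the wild type and 1.24, 0.16, 0.23 and 0.89 in the mutant, a difference of 0.79 ± 0.28 (SE, limma adjusted p = 0.0562), with wild-type array 4 above 2 mutant arrays. The second probe gave 0.10.

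Serpinh1, the collagen chaperone Hsp47 of the endoplasmic reticulum, read 0.80, 0.64, 0.78 and 1.12 in the wild type and 1.45, 0.72, 0.98 and 1.29 in the mutant, so the groups overlapped and the difference of 0.28 ± 0.19 (SE) did not pass (limma adjusted p = 0.264). Serpini2 read -3.79, -2.87, -2.87 and -3.99 in the wild type and -3.66, -2.91, -3.14 and -4.05 in the mutant, a difference of -0.06 ± 0.33 (SE, limma adjusted p = 0.904). Arrays 1 and 4 were the low ones in both groups.

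In the list of proteases that serpins inhibit 16 of 45 tested probes rose and 2 fell (median 0.50), where over all tested probes 21.2% rose and 10.8% fell (median 0.05). These shares are the background for the lists that follow too. Its 3 smallest p-values belonged to the cathepsin Ctsk (1.23, limma adjusted p = 0.00242), the urokinase gene Plau (0.83, limma adjusted p = 0.00555) and the cathepsin Ctsl (1.01, limma adjusted p = 0.00626). Ctsl is also in the Sertoli list. The 2 that fell were Acr, acrosin, a sperm protease (-0.66, limma adjusted p = 0.0132), and the mast cell protease Mcpt4 (-0.57, limma adjusted p = 0.0432), both named because so few fell. With normexp 6 of the 45 rose, where 6.20% of all tested probes did.

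Among cofactors, receptors and clearance genes 18 of 35 probes rose and 2 fell (median 0.71). Plaur, the urokinase receptor, rose by 1.60 (limma adjusted p = 3.41e-04), the heparan sulfate proteoglycan gene Sdc4 by 0.99 (limma adjusted p = 0.00149) and F3, tissue factor, by 0.95 (limma adjusted p = 0.00666). With normexp 10 of the 35 rose, again beside 6.20% of all tested probes.

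Protease inhibitors of other families moved similarly, with 18 of 42 probes up and 1 down (median 0.42), and 10 up with normexp, beside the same 6.20%. Wfdc2 rose by 1.31 (limma adjusted p = 0.00226), Itih5 by 1.03 (limma adjusted p = 0.00483) and Reck, a membrane inhibitor of metalloproteinases, by 0.68 (limma adjusted p = 0.00573). The difference between these families and the Serpins was not tested.

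The collagen clients and endoplasmic reticulum partners of Serpinh1 had 8 of 38 probes up and 1 down (median 0.39), a share close to the background of 21.2%. Their smallest p-values belonged to prolyl 4-hydroxylase subunits, P4ha3 (0.84, limma adjusted p = 0.00347) and both probes of P4ha1 (0.94 and 1.00, limma adjusted p = 0.00366 and 0.00860). The wild-type level of the P4ha3 probe was the floor (-6.12, SD 0), so the wild-type arrays gave its p no spread. Hormone and carrier genes related to Serpina6 and Serpina7 had 9 of 25 up and 2 down (median 0.67). The smallest p-values there belonged to 2 probes of the thyroid hormone receptor Thrb (1.34 and 1.25, limma adjusted p = 3.46e-04 and 0.00431) and to Dio3, which inactivates thyroid hormone (1.11, limma adjusted p = 0.00288). The Thrb probe with a difference of 1.34 was also at the floor in the wild type (-6.12, SD 0), with the same limit. With normexp 4 of the 38 and 3 of the 25 rose, beside that 6.20%.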

How the data were processed

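Per the labels' protocols, Trizol RNA was labelled with Cy3 from 0.5 ug with a one-colour kit, and per the submitters' processing notes spots were read with Agilent Feature Extraction 9.5.3.1. The deposited intensity of each spot is the scanner's processed signal, background-subtracted and detrended within the array per the file headers, with nothing scaled between arrays. The deposited value table held the same intensity on all 8 arrays.

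Signals were scaled to the 75th percentile of each array's non-control features, lifted to at least 0.01437 of that percentile (log2 -6.12) and put on a log2 scale. Repeated spots were averaged and flagged spots (0.198%) left out. All 33717 passing probes were fitted with limma 3.58.1 in R 4.3.3, with genotype as the only term, two-sided. Precision is limited by the 4 arrays a group. The procedure was tested on simulated data.

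Named members were 13 genes set by name plus, in each clade, the called probes with the 6 smallest p, and in each related list the 3 smallest. Other names were chosen after their values were seen. Members, gene lists and tests were chosen with earlier results of these data known. The alternatives changed the scaling, background correction, filter, probe choice, weights, block and arrays. The normexp correction used an offset of 50. Sequences came from the array files and RefSeq. Promoter entries were found for 44 of the 54 genes. The values of 1 of the named genes are not reported here.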

Additional observations from a re-analysis of the deposited data

Results flagged for a closer look

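In 5 of 110 groups of 4 arrays of a tested Serpin probe, 1 array stood apart from the other 3 by Dixon's criterion at the 95% level, where chance alone flags about 1 in 20 groups. Serpina3g read 1.83 on wild-type array 1, above the nearest at 1.52. Serpinb13 read -5.63 on wild-type array 2, above -6.06, all near the floor. The dimmer Serpinb3c probe read -4.08 on mutant array 3, above -4.59, and it is the array without which that probe did not pass. Serpinf2 read -1.40 on mutant array 1, above -1.78. Serpini1 read -0.80 on mutant array 2, below -0.50.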

How the results depend on the processing

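The sums are given as probes up and down in the mutant, 18 and 2 in the reported analysis. The count up was 10 with normexp and 5 without mutant replicates 1 and 4 (an alternative chosen after seeing the data). The count down was 5 with median scaling, 6 with cyclic loess, 6 with quantile normalization, 1 with spike-in scaling, 4 with array weights and 0 without mutant replicates 1 and 4. In clade A the count down was 2 with median scaling, quantile normalization and cyclic loess and 1 with 1 probe per gene, array weights or the replicate block, and the count up was 2 without mutant replicates 1 and 4. In clade B the count up was 2 with quantile normalization, cyclic loess, the filter on all 8 arrays or without mutant replicates 1 and 4, and 1 with normexp, while the count down was 2 with median scaling or array weights, 3 with quantile normalization or cyclic loess, and 0 with spike-in scaling or without those replicates. In clades C to I the count up was 5 with array weights, 4 with the replicate block and 1 without those replicates, and the count down was 0 without them. Leaving out 1 array gave 14 to 20 up and 1 to 3 down in all, 7 to 10 and 0 to 1 in clade A, 5 to 10 and 0 to 1 in clade B, and 2 to 4 and 1 in clades C to I. The direction turned with normexp for Serpina3k (-0.29), Serpinb13 (-0.38), Serpinb3c (-0.37), Serpinb9 (-0.16), Serpinb9c (-0.29) and Serpinb1b (-0.49), and Serpinb1b was also -0.10 with cyclic loess and -0.20 with quantile normalization. Of the 18 rises 9 passed under all 5 other scalings and corrections.

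With the replicate number as a block, 24 probes were up and 3 down. Deviations of same-numbered arrays correlated at 0.28, 0.24, 0.09 and 0.61, and 7 of 8 arrays matched their own number best, a hint from the data only, so the numbers were not taken as pairs. Over all probes 7160 were up and 3655 down, with 4352 and 3589 under quantile normalization, 4523 and 3006 under cyclic loess, 5266 and 2452 under spike-in scaling, 2092 and 3097 under normexp, and 10189 and 8424 with array weights. The causes of these changes were not tested. Of the 18 rises 10 were on probes at a mean level of -2 or below, near background.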
